A study of Mus musculus with 3 samples.

Results

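The platelet-derived growth factor (PDGF) genes described here are the 4 ligand genes *Pdgfa*, *Pdgfb*, *Pdgfc* and *Pdgfd* and the 2 receptor genes *Pdgfra* and *Pdgfrb*, which are 6 of the 19165 genes in the expression table. They were chosen by name, without use of their values, though earlier results of these data were known. Each was followed at every stage through epithelial, dermal, endothelial and mural cells that were set apart with marker genes other than these 6. The skin came from the backs of male C57BL/6 mice at the embryonic day stages E13.5 and E16.5 and at the newborn stage P0. Animals of a stage were pooled into 1 library, and the sources name no mutation or treatment for any of the 3 libraries. Embryonic skin was dissociated with trypsin and newborn skin with collagenase IV. A difference between stages can therefore not be told apart from a difference between libraries, pools or digestions.

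PDGF ligands are secreted dimers that bind receptor tyrosine kinases on neighbouring cells and drive their growth, survival and migration. The A and C chains act mainly through the alpha receptor encoded by *Pdgfra*, the D chain mainly through the beta receptor encoded by *Pdgfrb*, and the B chain through both. In skin, PDGF-A from the epithelium is known to act on the dermal mesenchyme beneath it, and PDGF-B from endothelium is known for recruiting pericytes, the mural cells that wrap small vessels.

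Single cells were captured in droplets and transcripts were counted by their unique molecular identifiers (UMIs). The libraries held 5962, 5208 and 5065 cells at E13.5, E16.5 and P0, with median depths of 7066.5, 11021 and 6797 UMIs per cell, and pairs of libraries shared between 32 and 44 cell barcodes. Cells were clustered within each library without the 6 PDGF genes, and a cluster was called epithelial-like, dermal-like and so on from its markers. All 10 epithelial, dermal and endothelial markers and all 12 mural markers reached at least 20 CPM in the class they name at each stage where it was found. No mural-like class was found at E13.5. The level of a gene in a class is its summed UMI count divided by all UMIs of that class on the CPM scale, given with an exact Poisson 95% interval, and shares are given with exact binomial 95% intervals. These intervals cover counting error only. No test was run and no p-value is given, because each stage had 1 library and the cells of a library are not replicates. Differences are log2 ratios of CPM after adding 10 to each, which understates the change of low genes. A difference was called where it was at least 1 (2-fold), its interval left out 0 and the groups together held at least 50 UMIs. CPM values are not compared between the 6 genes, because reads from transcript ends can be captured with unequal efficiency.

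Free RNA in droplets puts transcripts of abundant cells into other cells. A carry-over level was therefore set beside low values. It is the level a gene would have in a class if its transcripts had come there in the same ratio as the markers of the class where the gene was highest. Dermal markers were seen in other classes at all stages, and at E13.5 their summed level was 2910 CPM in epithelial-like cells and 2560 CPM in endothelial-like cells against 9565 CPM in dermal-like cells. At that stage 9 of the 10 dermal markers reached 20 CPM in both of those other classes.

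*Pdgfa* encodes the A chain. On the mouse GRCm38 assembly it lies at chr5:138976014-138997370 on the minus strand. Its highest level from E16.5 onwards was in the epithelium, with 468 CPM (interval 457 to 479) at E16.5 and 514 CPM (interval 505 to 524) at P0. At E13.5 the same class held 131 CPM (interval 121 to 142). The highest class at E13.5 was muscle-like, with 169 CPM (interval 159 to 180). Without the 137 cells of its sub-clusters led by markers of another class, the epithelial-like level at E13.5 was 152 CPM (interval 139 to 166), which overlapped with the muscle-like interval. The muscle-like class was not sub-clustered, so nothing was left out on its side. Dermal-like cells were the lowest class at E13.5 and P0, with 12.2 and 22.7 CPM, the latter overlapping with endothelial-like cells, and at E16.5 they held 17.6 CPM.

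The *Pdgfa* level of the dermal-like class as a whole was close to what epithelial markers carried. The carry-over level in dermal-like cells was 17.5 CPM for E16.5 and 22.8 CPM for P0, so the measured values were 1.01 and 0.997 times it. Endothelial-like cells held 25.2, 23.9 and 23.8 CPM at the 3 stages and were likewise within 1.32 and 1.05 times the carry-over level at E16.5 and P0. The interval of the E16.5 endothelial-like level (20.3 to 27.9) lay above its carry-over level, and that of P0 (18.6 to 30.1) held its carry-over level. Condensate- or papilla-like cells, the dermal cells at the base of the follicle, held 42.7 CPM (interval 35.4 to 51.0) at E16.5 and 40.8 CPM (interval 31.0 to 52.8) in newborn skin. At E13.5 the carry-over from muscle-like cells into dermal-like cells was 4.57 CPM, 2.66 times below the measured value. P0 cells with at least 2500 genes were also clustered and named again. The dermal-like class of that grouping held 109 CPM, instead of the 22.7 CPM set beside the carry-over level here. No carry-over level was set for that grouping.

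Schwann-like cells, the glia of peripheral nerves, were high in *Pdgfa* at every stage. They held 114, 353 and 260.0 CPM at E13.5, E16.5 and P0, and the carry-over level was 5.93, 77.9 and 30.7 CPM. Their interval overlapped that of epithelial-like cells at E13.5 and lay below it at E16.5. Mural-like cells held 135 CPM (interval 120 to 152) at E16.5 and 195 CPM (interval 175 to 217) at P0, which was 3.10 and 6.14 times the carry-over level. At P0 the melanocyte-like class ranked above Schwann-like cells with 311 CPM, with overlapping intervals, and its carry-over level was 155 CPM. Of the 493 melanocyte-like UMIs, 174 lay in 5 cells of 106. As a mean over cells the melanocyte-like level was 175.2 CPM, below the 283.5 CPM of Schwann-like cells. The immune-like class at P0 stood at 145 CPM, but 43 of its 97 UMIs lay in 1 cell and 87 in 5 cells of 66.

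**Figure D1:**
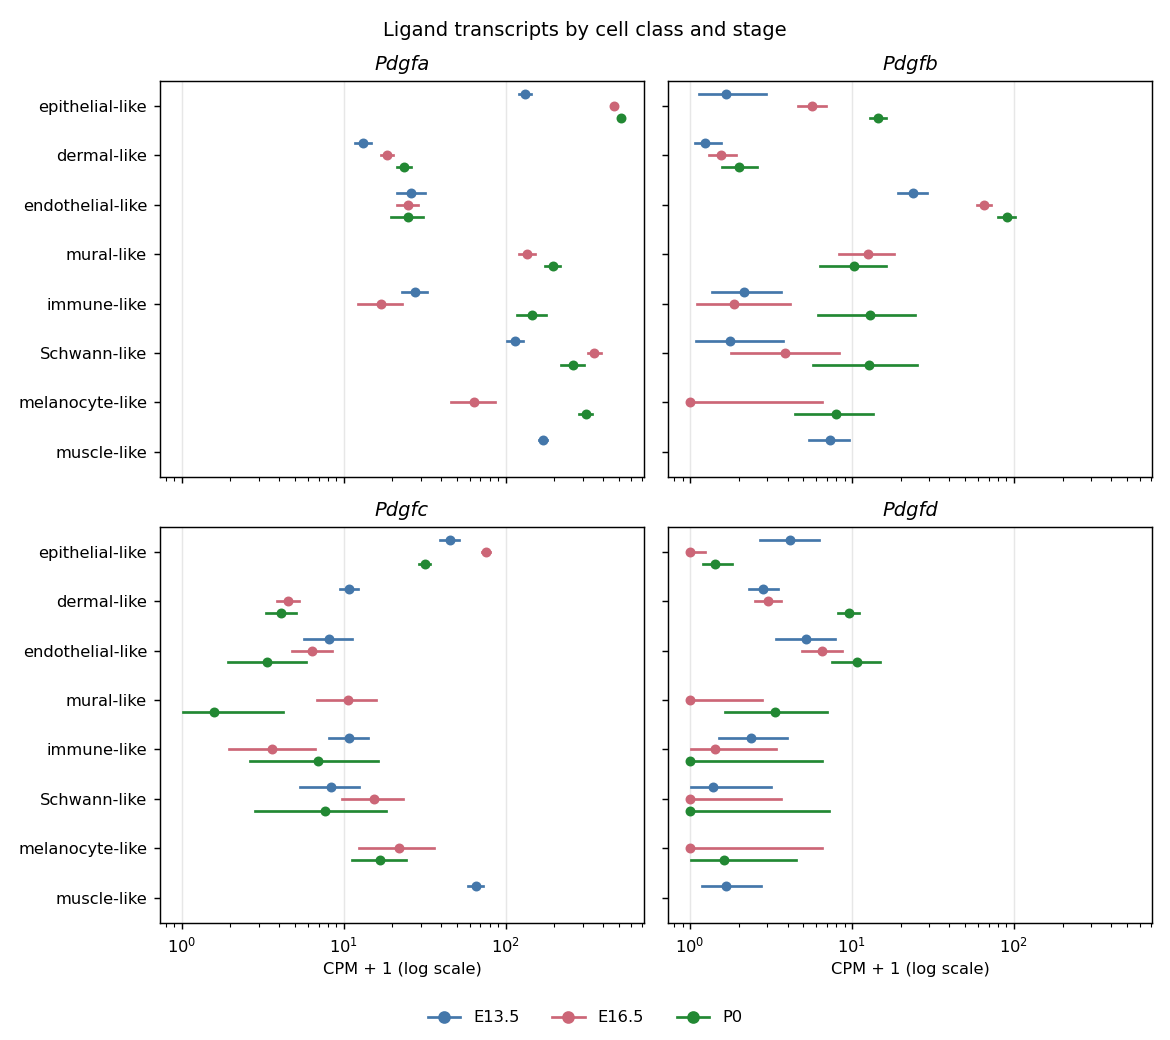
Levels of the 4 ligand transcripts (CPM + 1, log scale) in 8 cell classes at E13.5, E16.5 and P0, where points are sums of UMIs over the cells of a class in 1 library and bars are exact Poisson 95% intervals that cover counting error only. *Pdgfa* and *Pdgfc* stand highest in epithelial-like cells at E16.5 and P0, *Pdgfb* in endothelial-like cells at all 3 stages, and no *Pdgfd* point passes 10 CPM in the classes drawn.

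*Pdgfc* encodes the C chain, which is secreted in an inactive form and freed by proteases. It lies at chr3:81036416-81214040 on the plus strand. Epithelial-like cells held 44.2 CPM (interval 38.2 to 50.8) at E13.5, 75.0 CPM (interval 70.7 to 79.5) at E16.5 and 30.6 CPM (interval 28.3 to 33.1) at P0. As for *Pdgfa*, muscle-like cells were above them at E13.5, with 64.3 CPM (interval 58.0 to 71.2). The epithelial-like level without those sub-clusters was 50.2 CPM (interval 43.0 to 58.2), which only just overlapped. Again nothing was left out on the muscle-like side. Epithelial-like cells were the highest class at E16.5 and P0, followed by melanocyte-like cells with 20.9 and 15.8 CPM, and the intervals of the first and second class did not overlap. Below the second rank no neighbouring classes had separate intervals at either stage. Dermal-like cells held 9.77, 3.54 and 3.12 CPM, and the last 2 values were 1.26 and 2.299 times the epithelial carry-over level. Mural-like cells held 20 UMIs at E16.5, or 9.59 CPM, which was 2.56 CPM without their sub-clusters led by another class, and 1 UMI at P0.

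Promoter-side sequence was looked at for the 2 ligands called higher in epithelial-like than in dermal-like cells at every stage, and for *Pdgfra*, which was called lower. They are printed to show what lies before a RefSeq start of each gene. RefSeq on GRCm38.p6 gave upstream windows for 4 of the 6 genes, 3 of which are printed, 5′ to 3′, with matches to CACCC in capitals. The *Pdgfa* window is chr5:138995038-138995194 on the minus strand, trimmed from 250 to 157 bases to leave out annotated exons. The trimmed bases are those nearest the RefSeq start, and the window lies within the span of the gene. The *Pdgfc* window is chr3:81036166-81036415 and the *Pdgfra* window chr5:75152001-75152250, both on the plus strand.
Pdgfa: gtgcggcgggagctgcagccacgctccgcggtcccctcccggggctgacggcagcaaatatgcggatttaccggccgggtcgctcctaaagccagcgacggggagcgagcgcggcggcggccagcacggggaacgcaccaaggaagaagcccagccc
Pdgfc: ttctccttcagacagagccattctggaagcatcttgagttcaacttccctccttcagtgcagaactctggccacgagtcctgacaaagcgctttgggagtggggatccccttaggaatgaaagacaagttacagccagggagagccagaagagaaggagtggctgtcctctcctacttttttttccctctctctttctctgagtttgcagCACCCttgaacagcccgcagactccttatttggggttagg
Pdgfra: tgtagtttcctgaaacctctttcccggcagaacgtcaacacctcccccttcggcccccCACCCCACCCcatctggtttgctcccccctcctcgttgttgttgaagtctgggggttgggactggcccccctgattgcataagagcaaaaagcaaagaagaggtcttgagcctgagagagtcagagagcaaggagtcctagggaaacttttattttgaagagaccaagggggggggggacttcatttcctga
The GC content was 72% in the *Pdgfa* window, against a median of 51% over 32851 windows of its length, and 50.8% and 54.4% in the other windows, against a median of 52.4%. The GC box (GGGCGG), the TATA box (TATAAA) and the CACCC box (CACCC) were searched on both strands. No GC box or TATA box match was in any of the 3 windows, while 32.7% and 12.4% of all windows of 250 bases and 17.6% and 7.55% of those of 157 bases hold one. CACCC matched once in the *Pdgfc* window, 2 times side by side in the *Pdgfra* window and nowhere in the *Pdgfa* window, and 52% of windows of 250 bases and 36.6% of windows of 157 bases hold it. A match is a description of the letters and not a site.

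*Pdgfb* encodes the B chain and lies at chr15:79995874-80014977 on the minus strand. Endothelial-like cells were its highest class at each stage, with 22.8 CPM (interval 18.3 to 28.1) at E13.5, 64.5 CPM (interval 58.6 to 70.9) at E16.5 and 89.3 CPM (interval 78.9 to 101) at P0. The interval of the next class lay below at every stage, and that class was muscle-like with 6.28 CPM, mural-like with 11.5 CPM and epithelial-like with 13.53 CPM in turn. Dermal-like cells were at 0.235, 0.553 and 1.0 CPM, from 5, 15 and 17 UMIs, which was 0.719, 0.549 and 0.550 times the endothelial carry-over level.

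*Pdgfb* in epithelial-like cells rested on 3 UMIs at E13.5, stood at 4.70 CPM (interval 3.68 to 5.92) at E16.5 and reached 13.53 CPM (interval 12.0 to 15.2) by P0. The last value was 18.3 times what endothelial markers carried, and its 279 UMIs were spread over 209 cells with at most 5 in a cell. Because epithelial-like cells were numerous at P0, they held 46.0% (interval 42.0 to 50.1) of all *Pdgfb* UMIs, and endothelial-like cells held 43.9% (interval 39.9 to 48.0). At E16.5 the endothelial-like share had been 76.8% (interval 73.1 to 80.2), with 10.1% of all UMIs.

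*Pdgfd* encodes the D chain, which also needs proteolytic release, and lies at chr9:6168584-6378850 on the plus strand. It was the least counted of the 6 genes, with 116, 96 and 193 UMIs per library. Endothelial-like cells held 4.20 CPM (interval 2.40 to 6.81), 5.55 CPM (interval 3.91 to 7.65) and 9.74 CPM (interval 6.52 to 14.0). Dermal-like cells held 1.83 CPM (interval 1.30 to 2.51), 2.03 CPM (interval 1.53 to 2.64) and 8.59 CPM (interval 7.25 to 10.1). The intervals of these classes were separate at E16.5 and overlapped at P0. At E13.5 the cartilage- or tendon-like class led with 7.07 CPM, from 11 UMIs, and no neighbours in the order had separate intervals. No *Pdgfd* UMI was counted in 961 epithelial-like cells at E16.5, which allows a level of up to 0.196 CPM (3 UMIs), and none in 180 mural-like cells, which allows up to 1.44 CPM.

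*Pdgfra* encodes the alpha receptor and lies at chr5:75152292-75198215 on the plus strand. It was highest in dermal-like cells at the later stages and second there at E13.5. Dermal-like cells held 110.1 CPM (interval 106 to 115) at E13.5, 87.4 CPM (interval 83.9 to 91.0) at E16.5 and 92.0 CPM (interval 87.5 to 96.7) at P0. Cartilage- or tendon-like cells at E13.5 held more, 138 CPM (interval 120 to 157), with no overlap. Among the other classes of at least 50 cells none passed 17.3 CPM at E16.5 and none passed 15.2 CPM at P0. An erythroid-like group of 32 cells at E16.5, too few to be compared, held 64.9 CPM.

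The *Pdgfra* level outside the dermis followed the dermal markers. At E13.5 the 7 other classes held between 27.0 CPM in muscle-like and 64.8 CPM in neural-like cells, and the ratio to the level carried by dermal markers ran from 0.801 to 1.21. Epithelial-like cells at that stage were at 0.897 times and endothelial-like cells at 1.14 times the carry-over level. At E16.5 epithelial-like cells were at 1.16 times and at P0 at 1.19 times that level, with 12.5 and 6.55 CPM. Mural-like cells held 6.71 CPM at E16.5, then 15.2 CPM at P0, 0.398 and 0.968 times the level carried by dermal markers. Without sub-clusters led by another class these levels were 6.39 and 5.10 CPM, and with cells assigned 1 by 1 they were 26.8 and 45.4 CPM. Whether epithelial-like or mural-like cells hold a *Pdgfra* level of their own above this background was not tested.

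*Pdgfrb* encodes the beta receptor. Mural-like cells were its highest class where they were found, with 388 CPM (interval 361 to 415) at E16.5 and 324 CPM (interval 298 to 352) at P0. Dermal-like cells came next, with 67.5 CPM (interval 64.5 to 70.7) and 24.3 CPM (interval 22.0 to 26.8), and they were the highest class at E13.5 with 74.8 CPM (interval 71.2 to 78.6). The mural and dermal intervals were separate at both stages. From dermal-like cells down, all neighbouring intervals overlapped at P0. When cells were assigned 1 by 1 from their marker UMIs instead of by cluster, the mural-like levels were 258 and 159 CPM.

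The mural-like cells of E13.5 could not be set apart, although 25 cells formed an endothelial-like cluster led by the pericyte genes *Rgs5* and *Vtn* together with endothelial *Cldn5*. These 25 cells held 88.0 CPM of *Pdgfrb*, beside 74.8 CPM in dermal-like cells, and as much *Pdgfa*. They were left without a class, and no interval was set for so few cells. Outside the dermis at E13.5, *Pdgfrb* lay between 21.1 CPM in epithelial-like and 49.5 CPM in cartilage- or tendon-like cells, and the ratio to the level carried by dermal markers ran from 0.833 to 1.23.

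Endothelial-like cells held 15 and 18.1 CPM of *Pdgfrb* at E16.5 and P0, which was 3.13 and 12.9 times the dermal carry-over level and 1.495 and 1.44 times the mural one. In this class 155 and 45 cells lay in sub-clusters led by markers of another class. Without those sub-clusters the levels were 7.01 and 0.885 CPM. The sub-clusters themselves stood at 24.2 and 72.4 CPM, and at P0 their summed mural markers were 1283 CPM against 220 CPM in the rest of the class.

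**Figure D2:**
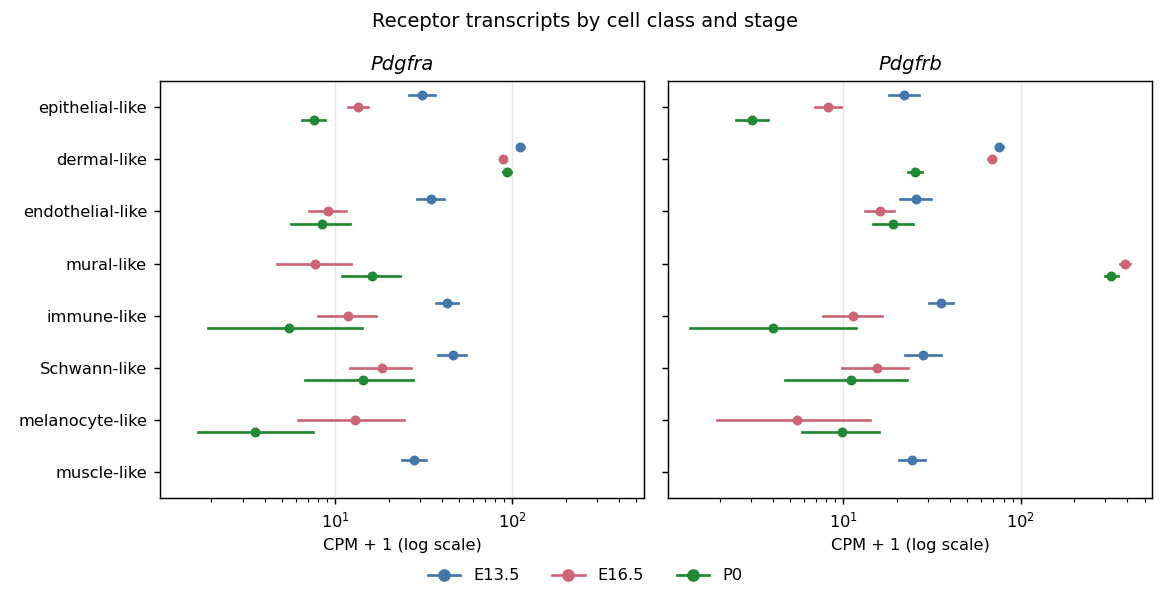
Levels of the receptor transcripts (CPM + 1, log scale) in 8 cell classes at E13.5, E16.5 and P0, with exact Poisson 95% intervals as bars that cover counting error only. *Pdgfra* is highest in dermal-like cells at each stage among the classes drawn, while *Pdgfrb* is highest in mural-like cells at E16.5 and P0, and its dermal-like point at P0 lies below the earlier points.

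**Figure D3:**
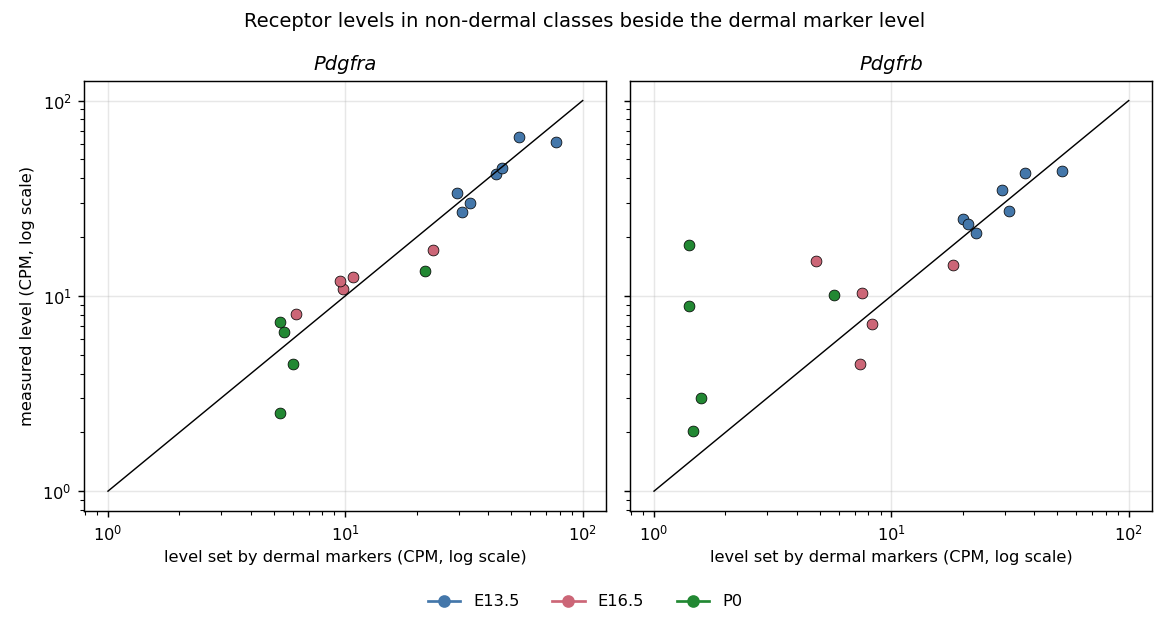
Measured receptor level (CPM, log scale) against the level carried by dermal markers (CPM, log scale) in each class other than dermal-like, mural-like and cartilage- or tendon-like, 1 point per class and stage, where the line marks equal values. All *Pdgfra* points lie near the line or below it, from 0.477 to 1.39 times the carried level, while *Pdgfrb* in endothelial-like cells at P0 lies 12.9 times above it.

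The first comparison asked which PDGF genes separate the epithelium from the dermis of the same library. At E13.5 4 of the 5 genes with enough UMIs were called (all genes: 7.46%), at E16.5 4 of 6 (11.9%) and at P0 5 of 6 (12.7%). *Pdgfa* was higher in epithelial-like cells by log2 differences of 2.67, 4.11 and 4.002, which correspond to CPM ratios of 10.8, 26.6 and 22.6. Among P0 cells with at least 2500 genes, clustered and named again, the dermal-like level was 109 CPM instead of 22.7 CPM. The difference was still called. *Pdgfc* was higher by 1.45, 2.65 and 1.63. Both receptors were lower: *Pdgfra* by log2 differences of -1.58, -2.12 and -2.62 and *Pdgfrb* by -1.45, -2.17 and -1.51. *Pdgfb* was called higher only at P0, with 1.10 (interval 0.98 to 1.21), and this call was lost (0.98) among cells with at least 2500 genes. *Pdgfd* was called at no stage. Its difference at P0 was -0.83 (interval -0.95 to -0.72), for 0.436 against 8.59 CPM, and it was called there with cells assigned 1 by 1 (-1.10). With 1 added to each CPM in place of 10 it was called at E16.5 and P0 (-1.60 and -2.74).

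Endothelial-like cells were set against all other cells of their library, since the B chain is the PDGF of the vessel wall. At E13.5 2 of 6 genes were called (all genes: 4.9%), at E16.5 5 of 6 (10.4%) and at P0 4 of 6 (12.8%). *Pdgfb* alone was called higher, by 1.54 (interval 1.33 to 1.76), 2.61 (interval 2.49 to 2.74) and 2.48 (interval 2.31 to 2.65). After thinning all cells to 3500 UMIs the E13.5 difference was 1.20, still above 1, and no longer a call. The loss therefore lay in the interval or the minimum of 50 UMIs, and 18 endothelial-like cells then held a *Pdgfb* UMI. *Pdgfa* was lower by -2.21 and -3.09 at E16.5 and P0 and *Pdgfra* by -1.01, -1.97 and -1.62 at the 3 stages. The E13.5 call of *Pdgfra* was lost with thinned cells (-0.91) and with means over cells (-0.96), so that neither call of that stage held with thinned cells. *Pdgfc* was lower by -1.08 and -1.10 at E16.5 and P0, and both calls were lost when cells were thinned (-0.93 and -0.92). *Pdgfrb* was called lower at E16.5 (-1.41) and not at P0 (-0.30), where it was called at -1.64 once the sub-clusters led by another class were left out. *Pdgfd* was higher by 0.24, 0.50 and 0.52, with intervals above 0 and no call.

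Mural-like cells were set against dermal-like cells to compare the receptor-bearing classes of the skin. At E16.5 3 of the 5 genes with enough UMIs were called (all genes: 7.28%) and at P0 3 of 5 (8.99%). *Pdgfrb* was higher in mural-like cells by 2.36 (interval 2.25 to 2.47) at E16.5 and 3.28 (interval 3.13 to 3.44) at P0, CPM ratios of 5.74 and 13.3. *Pdgfra* was lower by -2.54 and -2.02, and the P0 value was -0.92 and no longer a call when cells were assigned 1 by 1. The ligand *Pdgfa* was higher by 2.39 and 2.65. Among P0 cells with at least 2500 genes, clustered and named again, the last difference was 0.84 and was not called. The dermal-like level of that grouping was 109 CPM instead of 22.7 CPM.

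**Figure D4:**
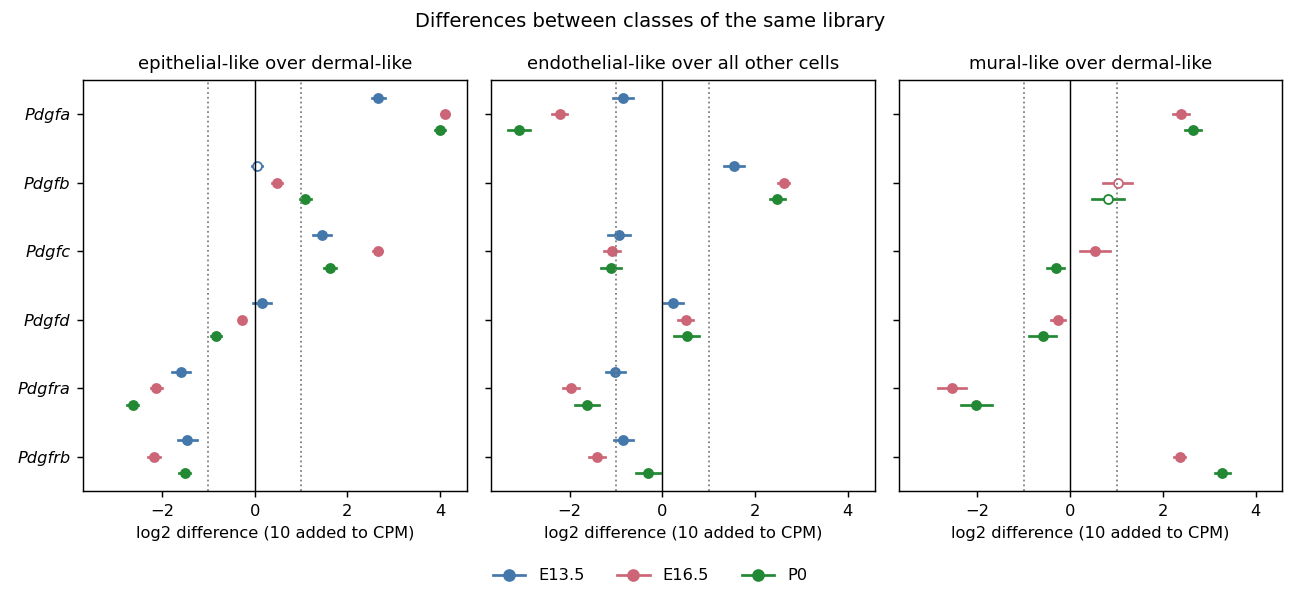
Log2 differences (10 added to each CPM) of the 6 genes between classes of the same library, with 95% counting intervals, dotted lines at the 2-fold limits and open points where the groups together held fewer than 50 UMIs. *Pdgfa* and *Pdgfc* lie to the right and both receptors to the left in epithelial-like over dermal-like cells at every stage, and *Pdgfb* alone lies to the right of the limit in endothelial-like cells.

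Most *Pdgfa* and *Pdgfc* transcripts came from the epithelium in the later libraries and most *Pdgfra* transcripts from the dermis. Epithelial-like cells held 21.4%, 80.6% and 87.1% of all *Pdgfa* UMIs in the 3 libraries in order of age, and 8.36%, 23.1% and 44.2% of all UMIs. Their share of *Pdgfc* UMIs was 17.2%, 83.6% and 86.7%. Dermal-like cells held 58.9%, 64.4% and 81.7% of *Pdgfra* UMIs, with 39.9%, 40.9% and 36.5% of all UMIs. The dermal-like share of *Pdgfrb* UMIs was 59.6%, 52.8% and 36.5%. Mural-like cells, with 3.15% and 3.68% of all UMIs, held 23.3% (interval 21.9 to 24.8) and 49.1% (interval 46.1 to 52.0) of *Pdgfrb* UMIs at E16.5 and P0. Shares depend on how many cells of a class a digestion released, and the dermal-like class leaves out clusters of 347 and 609 cells of E16.5 for which dermal was the best list. They were left unnamed because *Hbb-y*, an erythroid marker, and *Stmn2*, a neural marker, were among their 10 leading genes. They held 99.7 and 95.6 CPM of *Pdgfra*, and a cluster of 214 cells left unnamed in the same way at P0 held 106 CPM.

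Detection in single cells was compared after thinning each cell to 3500 UMIs, with immune-like cells as the background. *Pdgfa* was detected in 27.5%, 71.4% and 70.2% of epithelial-like cells at E13.5, E16.5 and P0, against 9.25%, 4.81% and 7.58% of immune-like cells. Without thinning the epithelial-like shares were 40.4%, 91.6% and 86.2%, at median depths of 6335.5, 13654 and 9579 UMIs, and those of immune-like cells were 14.9%, 10.5% and 16.7% at 5937, 10224 and 8220.5 UMIs. *Pdgfc* was detected in 13.53%, 23.7% and 10.2% of epithelial-like cells thinned and in 26.1%, 62.4% and 26.7% unthinned. The thinned immune-like shares for *Pdgfc* were 4.45%, 0.481% and 0%, the last of 66 cells, which allows up to 4.55% (3 cells).

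*Pdgfb* was detected in 4.84%, 21.1% and 21.8% of thinned endothelial-like cells, against 0.392%, 1.56% and 4.30% of epithelial-like cells and 0.356%, 0.481% and 4.55% of immune-like cells. At P0 the epithelial-like share was no higher than the immune-like one, which rested on 3 of 66 cells. The unthinned endothelial-like shares were 11.8%, 58.1% and 50.2%, at median depths of 7368.5, 16540 and 9666 UMIs. *Pdgfd* reached 3.36% of thinned dermal-like cells at P0 (interval 2.69 to 4.14) against 0.818% and 0.602% in the earlier libraries. Its immune-like share was 0.534% at E13.5 and 0.481% at E16.5. At P0 it was 0 of 66 cells, which allows up to 4.55% (3 cells), more than the dermal-like share.

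*Pdgfra* was detected in 30.9%, 25.8% and 27.8% of thinned dermal-like cells. The immune-like share was 17.6% at E13.5, then 0.962% and 1.52%. Unthinned, the dermal-like shares were 57.0%, 59.4% and 42.8% at median depths of 8251, 10810 and 6040.5 UMIs. *Pdgfrb* was detected in 73.9% and 65.3% of thinned mural-like cells at E16.5 and P0 and in 21.6%, 20% and 8.44% of dermal-like cells. The share in epithelial-like cells was 10.0%, 1.66% and 0.443%, and unthinned mural-like shares were 94.4% and 81.0% at 9721.5 and 6156.5 UMIs.

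Receptor transcripts were found together in some dermal-like cells. Among thinned dermal-like cells with a *Pdgfra* UMI, 23.6%, 22.7% and 10.4% at the successive stages also had a *Pdgfrb* UMI. Among those without, the values were 20.7%, 19.1% and 7.70%. In mural-like cells 4 of 180 cells at E16.5 and 11 of 242 at P0 had a *Pdgfra* UMI, of which 1 and 4 had *Pdgfrb* as well. In epithelial-like cells *Pdgfc* was in 17.1% of cells with *Pdgfa* and 12.2% of cells without at E13.5, and in 24.3% and 22.2% at E16.5. At P0 these values were 10.4% and 9.98%.

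Within the epithelium, *Pdgfa* varied with the compartment. At E13.5 the basal-like sub-cluster, 49 cells led by the placode gene *Dkk4*, held 489 CPM (interval 430 to 555), and the suprabasal-like cells 181 CPM (interval 150 to 217). A periderm-like sub-cluster of 57 cells led by *Gabrp*, *Upk1b* and *Krt7* held 42.9 CPM. At E16.5 follicle sheath-like cells led with 832 CPM (interval 791 to 875), above basal-like cells with 466 CPM and placode- or matrix-like cells with 405 CPM, whose intervals overlapped. At P0 placode- or matrix-like cells, 159 cells led by *Shh*, held 1093 CPM (interval 1045 to 1143). Follicle sheath-like cells followed with 555 CPM, basal-like cells with 412 CPM, inner root sheath-like cells with 244 CPM and suprabasal-like cells with 75.1 CPM, and no intervals of these 5 overlapped.

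*Pdgfa* in basal-like cells alone was 489, 466 and 412 CPM at the 3 stages, and the difference of P0 over E13.5 was -0.24 (interval -0.44 to -0.05). The basal-like name covers unlike cells. *Dkk4*, *Kremen2* and *Wnt3* were among the leading genes of its E13.5 cells and not of those at E16.5 or P0. At E13.5, 49 of the 510 epithelial-like cells were basal-like. A group of 90 cells at E16.5, led by *Cnfn*, *Psca* and *Krt6a* with *Krt4*, *Krt7* and *Krt19* among the 10 leading genes, was left without a name and held 116 CPM of *Pdgfa*. *Pdgfc* in basal-like cells was 85.3, 88.6 and 64.4 CPM. In the newborn follicle *Pdgfc* was lower, with 37.4 CPM in placode- or matrix-like, 17.2 CPM in follicle sheath-like and 4.32 CPM in inner root sheath-like cells. Follicle sheath-like cells had held 66.3 CPM at E16.5, and the difference of P0 over E16.5 was -1.49 (interval -1.78 to -1.20). This name covers unlike cells, since its E16.5 cells were led by *Lhx2*, *Sox9* and *Nfatc1*, and its P0 cells by *Krt79* and *Cidea* in one sub-cluster and by *Col14a1* and mitotic genes in the other. Among the named sub-groups of the newborn epithelium *Pdgfb* was highest in follicle sheath-like cells, with 22.8 CPM (interval 19.0 to 27.2), and lowest in placode- or matrix-like cells, with 4.46 CPM (interval 1.92 to 8.79).

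In vessels, *Pdgfb* and *Pdgfd* were highest in arterial- or tip-like cells. These held 102 CPM of *Pdgfb* (interval 80.0 to 127) at E16.5, from 48 cells, and 211 CPM (interval 146 to 295) at P0, from 18 cells. Their *Pdgfd* levels were 21.4 CPM (interval 12.2 to 34.7) and 43.5 CPM (interval 17.5 to 89.7). At E16.5 the high level was that of 15 cells led by the arterial genes *Gja5* and *Gja4*, with 56.3 CPM of *Pdgfd* and 136 CPM of *Pdgfb*. The other 33 cells, with genes of DNA replication such as *Pcna* and *Mcm4* among their leading genes, held 7.48 and 87.9 CPM. Lymphatic-like cells held 2.63 CPM of *Pdgfb* at E13.5, from 4 UMIs, against 83.6 CPM in 34 cells led by *Cd93*, *Apln* and *Gja4* that were left without a sub-group name. At E16.5 lymphatic-like cells, 43 in number, held 45.4 CPM (interval 32.9 to 61.2) of *Pdgfb* and also 69.7 CPM of *Pdgfa*.

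In the dermis the receptors were spread widely and *Pdgfd* was uneven. *Pdgfra* lay between 76.3 and 93.8 CPM in the upper-like, deep-like, condensate- or papilla-like and adipocyte lineage-like cells of E16.5. At P0 it was 99.0 to 103 CPM in the first 3 and 52.5 CPM in adipocyte lineage-like cells, of which a sub-cluster of 43 cells led by *Car3*, *Cfd* and *Adipoq* stood at 10.7 CPM. *Pdgfd* was highest in deep-like cells among the named sub-groups, with 3.45, 8.56 and 16.8 CPM at the 3 stages, against 0.584, 0.942 and 2.97 CPM in upper-like cells. Intervals of these 2 groups were separate at every stage. Deep-like cells were themselves uneven. At E16.5 a sub-cluster of 38 cells held 30.6 CPM and the other deep-like ones 3.38 and 5.16 CPM. At P0 a deep-like sub-cluster of 297 cells reached 38.9 CPM, and *Pdgfd* was among its 10 leading genes. The other deep-like sub-clusters of P0 held 8.50 and 4.85 CPM, and a dermal-like sub-cluster left unnamed held 9.45 CPM.

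Among mural-like cells, pericyte-like cells held 523 CPM (interval 448 to 608) of *Pdgfrb* at E16.5 and 545 CPM (interval 466 to 633) at P0. Smooth muscle-like cells held 426 CPM (interval 375 to 481) and 259 CPM (interval 226 to 296). The intervals overlapped at E16.5 and were separate at P0. *Pdgfa* was 92.4 and 128 CPM in pericyte-like and 147 and 196 CPM in smooth muscle-like cells, with overlapping intervals at both stages.

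**Figure D5:**
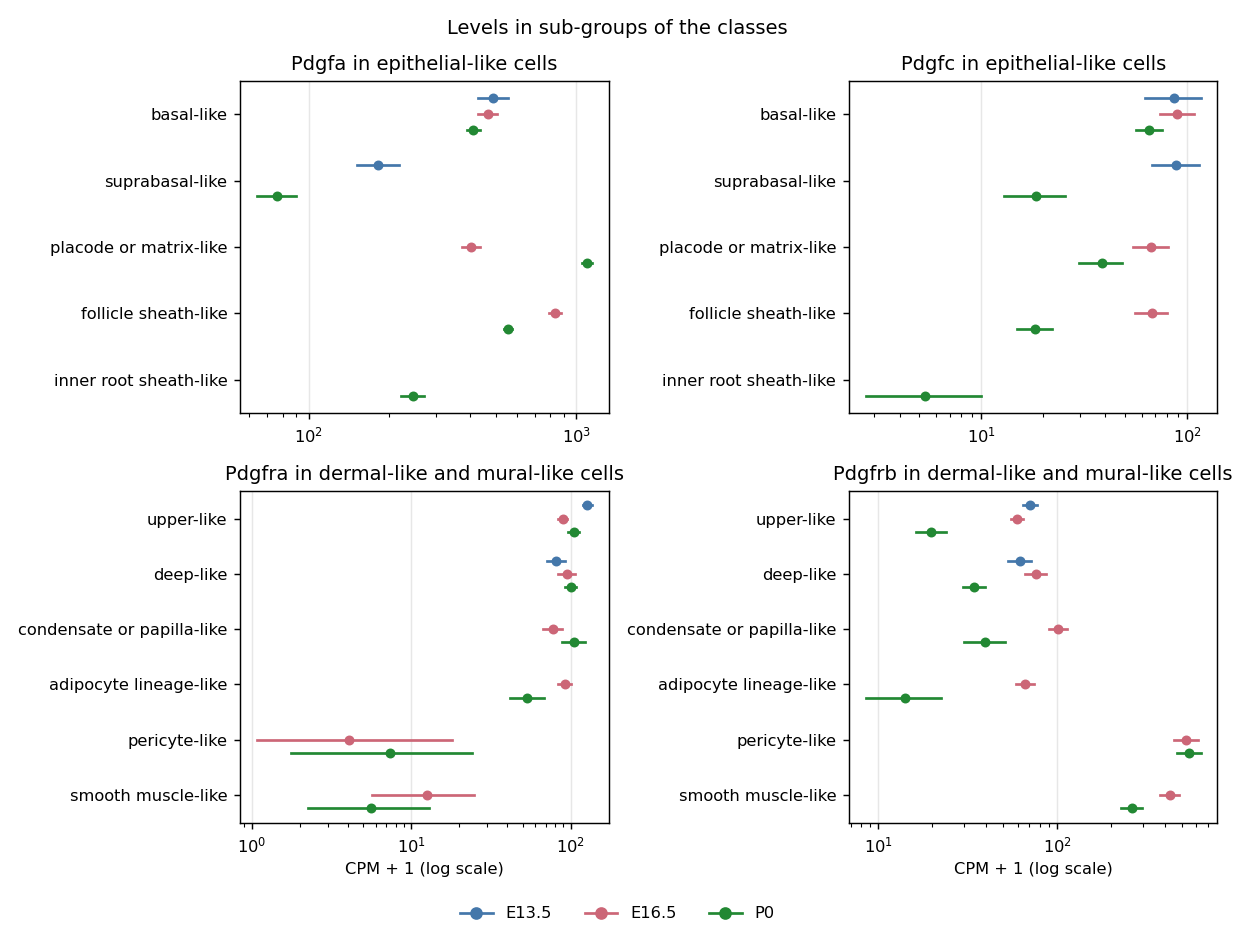
Levels (CPM + 1, log scale) of *Pdgfa* and *Pdgfc* in sub-groups of epithelial-like cells and of the receptors in sub-groups of dermal-like and mural-like cells, by stage, with exact Poisson 95% intervals as bars that cover counting error only. *Pdgfa* in basal-like cells, which were led by *Dkk4* at E13.5 only, lies between 412 and 489 CPM. Its highest point is 1093 CPM in placode- or matrix-like cells at P0, and *Pdgfrb* at P0 lies below E16.5 in each dermal sub-group.

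Between stages, 12 of 60 differences of the 6 genes within a class were called. In epithelial-like cells 1 of 5 genes was called at E16.5 over E13.5 (all genes: 7.09%), 1 of 5 at P0 over E16.5 (3.85%) and 4 of 5 at P0 over E13.5 (12.5%). *Pdgfa* was higher by 1.76 at E16.5 and by 1.90 at P0 than at E13.5. The summed epithelial markers of the class were 4532 CPM at E13.5, then 13130 and 15270 CPM. Basal-like *Pdgfa* was 489, 466 and 412 CPM, in cells with unlike leading genes at E13.5. The part of markers and sub-groups in the difference was not tested. *Pdgfb* was higher by 1.14 (interval 0.999 to 1.28) at P0 over E13.5. *Pdgfc* was lower at P0 than at E16.5 by -1.07 (interval -1.18 to -0.95), which became -0.998 and no call with thinned cells. *Pdgfra* and *Pdgfrb* were lower at P0 than at E13.5 by -1.27 and -1.37, and the summed dermal markers in epithelial-like cells were 30.4% of their dermal-like level at E13.5 and 6.00% of it at P0. The part of this background in the receptor differences was not tested.

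In dermal-like cells none of 5 genes was called at E16.5 over E13.5 (all genes: 3.91%), and 1 of 5 was called at P0 over E16.5 (4.53%) and at P0 over E13.5 (11.4%). That gene was *Pdgfrb*, lower at P0 by -1.18 (interval -1.29 to -1.06) and by -1.31 (interval -1.42 to -1.19). It was lower at P0 than at E16.5 in each named dermal sub-group. Upper-like cells went from 58.8 to 18.8 CPM and deep-like cells from 75.3 to 33.3 CPM. Condensate- or papilla-like cells went from 100.3 to 38.7 CPM and adipocyte lineage-like cells from 65.1 to 13.1 CPM. *Pdgfra* in dermal-like cells differed by 0.07 (interval -0.02 to 0.15), and pericyte-like *Pdgfrb* by 0.06 (interval -0.24 to 0.36). Smooth muscle-like *Pdgfrb* was also lower at P0, with 425.5 CPM (interval 375.2 to 480.7) at E16.5 and 259.3 CPM (interval 226.5 to 295.6) at P0. Dermal-like *Pdgfd* was higher at P0 than at E16.5 by 0.63 (interval 0.50 to 0.75), a CPM ratio of 4.24, and was not called.

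In endothelial-like cells 2 of 6 genes were called at E16.5 over E13.5 (all genes: 4.82%), none of 5 at P0 over E16.5 (5.69%) and 2 of 4 at P0 over E13.5 (17.7%). *Pdgfb* was higher by 1.18 (interval 0.94 to 1.42) at E16.5 and by 1.60 (interval 1.33 to 1.86) at P0 than at E13.5. The E13.5 class held 146 lymphatic-like cells with 2.63 CPM of *Pdgfb* and 173 cells of mixed sub-clusters with 15.5 CPM. A sub-cluster of 34 cells left without a name held 83.6 CPM. Summed endothelial markers of the class were 2667 CPM at E13.5, then 4611 and 6540 CPM. The part of sub-groups and markers in the *Pdgfb* difference was not tested. *Pdgfra* was lower by -1.27 and -1.32, and the dermal markers in the class were 26.8% of their dermal-like level at E13.5, then 7.11% and 5.78%. Their part in the difference was not tested. In mural-like cells none of the 2 genes with enough UMIs was called at P0 over E16.5 (all genes: 7.82%), and *Pdgfrb* differed by -0.25 (interval -0.40 to -0.10).

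Genes around the PDGF signal were read from 3 lists with 43 members in all, for which no test was made. Genes for ligand processing and binding were compared between epithelial-like and dermal-like cells. Of 11 measured members, 1 was higher and 3 lower at E13.5 (all genes: 4.07% and 3.39%), 1 and 6 at E16.5 (4.43% and 7.44%) and 1 and 7 at P0 (5.05% and 7.64%). Its median differences were -0.45, -1.36 and -1.34, against -0.03, -0.03 and 0.04 over all genes. The member that was higher at every stage was *St14*, the membrane protease matriptase, with 32.7 against 0.564 CPM at E13.5, 18.5 against 0.590 CPM at E16.5 and 21.7 against 0.941 CPM at P0. *Sparc*, a matrix protein that binds PDGF, was lower by -1.26, -2.69 and -3.89. The co-receptor *Nrp1* was lower by -2.19, -2.66 and -2.25.

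In endothelial-like cells the same list had 2 of 12 members higher and none lower at E13.5 (all genes: 2.74% and 2.15%), 1 of 12 and 2 of 12 at E16.5 (4.94% and 5.46%) and 2 of 11 each way at P0 (6.32% and 6.49%). *Hspg2*, the basement membrane proteoglycan perlecan, was higher by 2.04, 1.77 and 1.79. The protease gene *Plau* was higher at E13.5, with 22.0 against 1.17 CPM. The receptor *Lrp1* was lower at E16.5 and P0, by -1.94 and -1.82. In mural-like over dermal-like cells none of 10 members was higher and 4 were lower at E16.5 (all genes: 3.37% and 3.9%), and 0 and 4 at P0 (4.85% and 4.14%). Among the lower members were *Pcsk6*, a proprotein convertase, by -1.62 and -1.31, and the receptor-like *Pdgfrl* by -1.07 and -1.57.

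A list of 22 genes relays the signal inside the cell. Between epithelial-like and dermal-like cells none of 22 was called at E13.5 (all genes: 7.46%), 1 of 22 at E16.5 (11.9%) and 1 of 21 at P0 (12.7%). That was *Fyn*, a Src-family kinase, lower by -1.78 and -2.33. In endothelial-like cells 1 of 22 was higher at E13.5 (all genes: 2.74%), 2 were higher and 2 lower of 22 at E16.5 (4.94% and 5.46%), and 4 were higher and 1 lower of 21 at P0 (6.32% and 6.49%). *Yes1*, another Src-family kinase, was higher by 1.24, 1.38 and 1.11 at the 3 stages. *Plcg1*, the phospholipase C that receptor kinases bind, was higher by 1.22 at E16.5 and 1.35 at P0. *Pik3r2*, a regulatory subunit of the phosphoinositide kinase, was lower by -1.29 and -1.49 at these stages. In mural-like over dermal-like cells the adaptor *Gab1* was the 1 of 21 called at E16.5 (all genes: 7.28%), with 1.32, and *Fyn* the 1 of 20 at P0 (8.99%), with -1.71.

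Feedback inhibitors of receptor kinases were read from a list of 9 genes. In mural-like over dermal-like cells 2 of 9 were higher at E16.5 (all genes: 3.37%) and 4 of 9 at P0 (4.85%), and none was lower (3.9% and 4.14%), with medians of 0.58 and 0.46 against 0.01 and 0.01 over all genes. *Errfi1*, an inhibitor of receptor kinases, was at 60.9 against 8.997 CPM at E16.5 and 357 against 16.6 CPM at P0. *Spry4*, a Sprouty inhibitor, was higher by 1.70 and 2.73, and *Spry2* by 2.09 at P0. In epithelial-like over dermal-like cells 1 of 9 was higher and none lower at E13.5 (all genes: 4.07% and 3.39%), 1 and 1 of 9 at E16.5 (4.43% and 7.44%) and 1 and 2 of 8 at P0 (5.05% and 7.64%). *Dusp6*, the ERK phosphatase, was higher by 1.14 at E16.5 and 1.55 at P0, and *Errfi1* by 2.04 at E13.5. In endothelial-like cells *Dusp6* was the 1 of 9 called at E13.5, with 1.07 (all genes: 4.9%). At E16.5 *Spry2* and *Spred1* were lower by -1.38 and -1.02 (10.4%), and at P0 *Spry4* was higher by 1.14 (12.8%).

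The genes most like each PDGF gene were read from Pearson correlations of log2(CPM + 10) over 23 groups, each a class in a library, among 10110 genes. These points share libraries, depth and carried RNA, and the values are a description. Nearest to *Pdgfa* were *Frem2* (r = 0.84), *Ppp1r14c*, *Rab38* and *Plxnb1*. Nearest to *Pdgfc* were *Stk26* (r = 0.89), *Ociad2*, *Pvrl1*, *Polr2f* and *Cth*. For *Pdgfb* they were *8430408G22Rik* (r = 0.93), *Gpihbp1*, *Cracr2b*, *Adgrf5* and *C130074G19Rik*, and for *Pdgfd* *Trim16* (r = 0.82), *Thbd*, *Lepr* and *Meox1*. *Pdgfra* was nearest to *Clmp* (r = 0.96), *Lox*, *Dnm1*, *Wisp1* and *Pycr1*, and *Pdgfrb* to *Sema5b* (r = 0.94), *Rbpms2*, *Ddit4l*, *Mlf1* and *Fap*. Over the same 23 groups *Pdgfa* and *Pdgfra* had r = -0.56, *Pdgfb* and *Pdgfra* r = -0.55, *Pdgfa* and *Pdgfc* r = 0.47 and the receptors r = 0.33.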

How the data were processed

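The expression table holds natural log values, which the authors deposited as ln of 1 plus UMIs scaled to 10000 per cell. Per the submitters' processing notes reads were processed with Cell Ranger 2.2.0 on mm10. The authors kept cells with 1750 genes or more and genes seen in 3 cells or more. All 48197283 values above 0 were undone to whole UMIs within 0.001 (166173741 UMIs in 16235 cells, while the study's design text gives 15086).

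Each library was clustered with scanpy 1.11.5 in Python 3.11.15 (2000 variable genes, 30 principal components, 15 neighbours, Leiden resolution 1), leaving out 49 genes (the 6 PDGF genes and 43 pathway genes). A cluster was named from at least 3 markers at a log2 of at least 1 over the 25th percentile of clusters, and a class needed at least 50 cells to be compared. Sub-clusters led by at least 2 markers of another class are the mixed ones. Doublets predicted by Scrublet (expected rate 0.06) were kept. Cells were thinned to 3500 UMIs, which left out 1 cell. The statistics were tested on simulated data. The members and lists were chosen with earlier results of these data known. The text names every PDGF gene, up to 3 called genes per pathway list, direction and comparison, and the 5 most alike genes among those of at least 20 CPM in a group, of which some are not reported here. Alternatives were another resolution, no minimum, another added value, means over cells, at least 2500 genes and doublets left out. The cells with at least 2500 genes were clustered and named again. Thinned cells and cells assigned 1 by 1 were tried too. Leaving out mixed sub-clusters and counting unnamed clusters in their best class were chosen after seeing the data. Positions come from GENCODE on GRCm38 and upstream sequences from RefSeq.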

Additional observations from a re-analysis of the deposited data

Results flagged for a closer look

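*Pdgfc* in mural-like against dermal-like cells went opposite ways in 2 libraries. The log2 difference was 0.533 in the E16.5 library and -0.31 in the P0 library, and whether these values differ was not tested. The mural-like values rested on 20 UMIs and 1 UMI, and the E16.5 level was 2.56 CPM instead of 9.59 CPM without the sub-clusters led by markers of another class.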

How the results depend on the processing

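No paired analysis was possible because each stage had 1 library, and for the same reason no replicate could be left out. The 48 class differences kept their side of the threshold at clustering resolutions 0.5 and 2, without predicted doublets and with unnamed clusters counted. Of the 48, 47 did so with no UMI minimum, 46 with cells assigned 1 by 1, 45 with means over cells, 44 among cells with at least 2500 genes, 43 with thinned cells, 43 without the sub-clusters led by another class and 36 with 1 added to each CPM. With 1 added instead of 10, the pathway lists had 112 calls instead of 66. The share over all genes is not given at that setting, so this count says nothing particular to the lists. None of the alternatives turned a called direction. The doublet caller marked 0 cells at E13.5 and so had not worked there, and marked 77 at E16.5 and 101 at P0. Counts of a few UMIs, as for *Pdgfd* and for *Pdgfc* in mural-like cells, limit what these libraries can show.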
